A study of Rattus norvegicus with 24 samples.

Results

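The 5 dopamine receptor genes of the rat, Drd1 to Drd5, were followed through RNA-Seq of the nucleus accumbens (NAc) at postnatal day 14 (P14). They were taken by gene name from the 23950 genes of the tables and had 1 row each in all 24 libraries. Every pup was a Sprague Dawley rat, and 4 pups from separate litters made up each of 6 groups, defined by generation (F1 or F2) and exposure. In the in utero oxycodone (IUO) line, the F0 dam was gavaged with 10 mg/kg/day of oxycodone (oxy) for 5 days and then with daily steps of 0.5 mg/kg/day over 10 days up to 15 mg/kg/day, and the drug was kept up from mating to the weaning of her pups. In the postnatal oxycodone (PNO) line, the dam received 15 mg/kg/day only from birth to weaning, and the SAL line was the saline control. F1 pups met the drug through the placenta or the milk of the dam and were not dosed themselves. F2 pups came from F1 females of each line mated with naive males, so neither they nor their mothers were dosed. Pups were male or female and the sex of each was not given. NAc was cut from brain slices in a matrix, so a library holds RNA of all cell types in the piece.

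Dopamine receptors are G protein-coupled receptors in 2 classes. The D1-like receptors, encoded by Drd1 and Drd5, couple to stimulatory G proteins and raise cAMP, whereas the D2-like receptors, encoded by Drd2, Drd3 and Drd4, couple to inhibitory G proteins and lower it. In the striatum, Drd1 is used to mark the projection neurons of the direct pathway and Drd2 those of the indirect pathway. How far this split holds in the NAc was not tested here. Opioids affect the dopamine neurons that supply both types of neuron. In bulk RNA, fewer cells of a type and less RNA per cell cannot be told apart.

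The sequences just upstream of Drd1 and Drd2 are shown first, because these are the receptors that made up nearly all of the receptor RNA and whose levels went together across libraries. Each is the RefSeq window of the 250 bases before the annotated start on the GRCr8 assembly, on the plus strand, at chr17:10546354-10546603 for Drd1 and chr8:58605153-58605402 for Drd2. Capitals mark each GC box (GGGCGG or, on the other strand, CCGCCC), the short element bound by Sp factors.
Drd1 upstream window: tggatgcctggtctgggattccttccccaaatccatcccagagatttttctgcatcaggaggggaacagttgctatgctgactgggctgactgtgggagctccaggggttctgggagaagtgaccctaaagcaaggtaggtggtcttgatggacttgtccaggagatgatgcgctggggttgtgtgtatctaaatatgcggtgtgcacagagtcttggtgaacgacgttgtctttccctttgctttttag
Drd2 upstream window: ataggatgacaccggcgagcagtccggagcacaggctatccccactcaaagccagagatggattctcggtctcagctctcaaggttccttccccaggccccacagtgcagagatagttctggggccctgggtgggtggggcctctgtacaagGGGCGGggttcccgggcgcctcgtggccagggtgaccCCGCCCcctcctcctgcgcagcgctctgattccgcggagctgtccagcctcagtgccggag
The Drd1 window held no GC box, 4 CpG dinucleotides and 51.2% G and C, which lay at the 48.8th percentile of the 33469 rat windows of the same length. The Drd2 window held 2 GC boxes, 14 CpG and 66.0% G and C, at percentile 86.2. Of the other receptors, Drd5 had 2 GC boxes, 25 CpG and 67.2% G and C, Drd3 had none, with 38.0% G and C, and Drd4 had none, with 48.4%. A GC box on either strand occurred in 30.5% of all windows. The TATA box (TATAAA or TTTATA), found in 12.9% of all windows, was in none of the 5, and the core of the cAMP response element (TGACG or CGTCA), found in 18.2%, was in the Drd4 window only, once. These are matches of letters and not measured binding. Whether transcription begins at each annotated start in this tissue was not tested, so a window need not be the promoter.

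Drd2 was the most abundant dopamine receptor and Drd1 the next, with a wide gap to the others. The unit is FPKM, fragments scaled to transcript length and to the fragments of the library, which allows levels of different genes to be set side by side. Over the 24 libraries, Drd2 had a median of 31.8 FPKM (range 15.78 to 69.19) and Drd1 a median of 15.8 FPKM (range 6.87 to 27.18). Drd5 followed at 0.735 FPKM (range 0.33 to 1.67), then Drd3 at 0.215 FPKM (range 0 to 0.82), while Drd4 was listed at 0 in 16 libraries and reached no more than 0.07 FPKM. Drd2 was above Drd1, and Drd1 above Drd5, in 24 of 24 libraries. Drd5 was above Drd3 in 22 libraries and Drd3 above Drd4 in 20. Together Drd1 and Drd2 made up between 94.29 and 99.09% of the summed receptor FPKM of a library. The D1-like pair took a median of 34.49% of that sum (range 19.85 to 45.85%).

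Among the 383 genes that the files annotate with G protein-coupled receptor activity, Drd2 ranked between 8 and 19 (median 11) and Drd1 between 15 and 32 (median 19). Drd3, Drd4 and Drd5 do not carry this annotation in the files and were not ranked. Of all genes, Drd2 lay at the 89.4th and Drd1 at the 80.6th percentile of level (medians over libraries), against 40.9 for Drd5, 31.9 for Drd3 and 12.5 for Drd4. Drd1 varied least from library to library, with a coefficient of variation of 27.8%, against 37.4% for Drd2, 44.8% for Drd5 and 84.9% for Drd3. The files list 2 transcripts for Drd2 (ENSRNOG00000008428), and 1 gene value was used, so the long and short receptor isoforms were not separated here. They list 2 for Drd3 (ENSRNOG00000060806) and 1 each for Drd1 (ENSRNOG00000023688), Drd4 (ENSRNOG00000017927) and Drd5 (ENSRNOG00000005338).

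**Figure D1:**
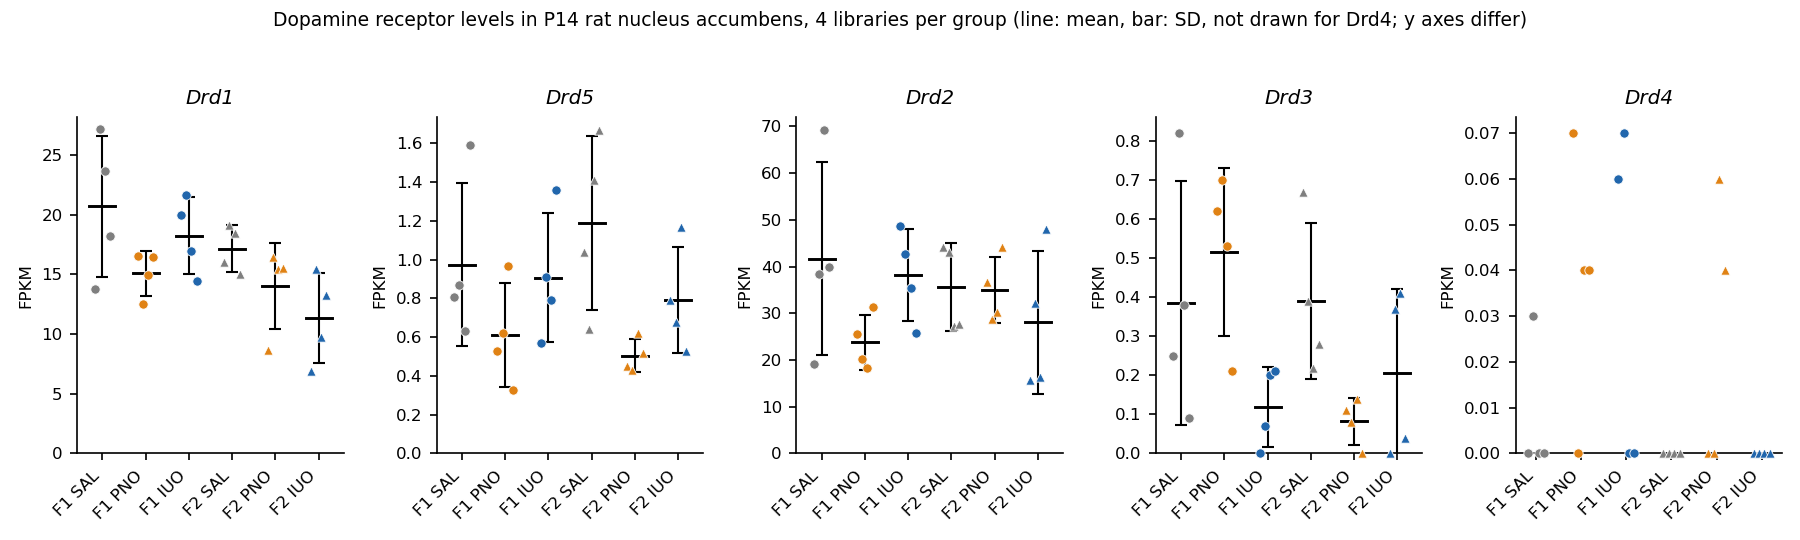
FPKM of each receptor (y axis, a scale of its own per panel) in the 4 libraries of each group (x axis), with the group mean as a line and the SD as a bar. Drd2 spans 15.78 to 69.19 FPKM and Drd1 6.87 to 27.18, whereas no Drd4 point is above 0.07; the Drd4 panel has no means or bars.

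The tissue was checked against marker genes. The 10 striatal projection neuron markers summed to between 385 and 1066 FPKM, and none was at 0 in any library. The most abundant of them was Ppp1r1b, the dopamine- and cAMP-regulated phosphoprotein of these neurons, at a mean of 355 ± 107 FPKM (SD, n = 24). The least abundant was the transcription factor Bcl11b at 6.30 ± 9.16, with a range from 0.05 to 28.45. The sums of markers of neighbouring tissue varied much more than the striatal sum. The 6 thalamus markers summed to 17.93 FPKM in the lowest and 297.6 in the highest library, the 7 cortical excitatory neuron markers to 10.48 and 370.0, the 6 hypothalamus markers to 3.99 and 261.9, and the 7 choroid plexus markers to 5.22 and 12250. Slc6a3, the dopamine transporter of midbrain dopamine neurons, stayed at or under 0.27 FPKM. The Y-linked genes, carried by males only, were not evenly spread over the groups. The 3 found of 4 listed summed to 27.2 to 36.08 FPKM in the F1 SAL libraries and to 0.03 to 2.57 in the F2 SAL libraries, while the other groups held both low and high libraries (1.24 to 44.5 in F1 PNO, 0.15 to 37.3 in F1 IUO, 0 to 30.16 in F2 PNO and 0.57 to 36.71 in F2 IUO). Generation and sex therefore cannot be told apart between the SAL groups. The part of these markers in differences between groups was not tested except where a value is given.

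Drd1, the main D1-like receptor and the marker of direct pathway neurons, had its highest mean in F1 SAL and its lowest in F2 IUO. The F1 SAL libraries read 13.76, 27.18, 23.63 and 18.21 FPKM, the F1 PNO libraries 16.56, 12.52, 14.92 and 16.46, and the F1 IUO libraries 19.94, 21.68, 16.95 and 14.45. In the F2 generation, SAL read 16.05, 19.12, 18.47 and 15.03 FPKM, PNO 8.64, 16.43, 15.42 and 15.54, and IUO 6.87, 15.46, 9.77 and 13.30. F1 SAL had the largest SD (5.91 FPKM) and F2 IUO the largest coefficient of variation (33.5%), and the low end of the gene was held by F2 IUO replicates 1 and 3 and F2 PNO replicate 1, each under 10 FPKM. The means ran from 20.7 in F1 SAL through 18.3 in F1 IUO, 17.2 in F2 SAL, 15.1 in F1 PNO and 14.0 in F2 PNO to 11.4 in F2 IUO, a 1.82-fold span. Neighbours in this order did not differ beyond their spread (exact permutation test, 2-sided, lowest p = 0.229).

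Drd5, the D1-like receptor with the higher affinity for dopamine, read 0.81, 0.87, 0.63 and 1.59 FPKM in F1 SAL, 0.53, 0.62, 0.97 and 0.33 in F1 PNO and 0.57, 0.91, 0.79 and 1.36 in F1 IUO. In F2 it read 1.04, 0.64, 1.41 and 1.67 FPKM in SAL, 0.45, 0.43, 0.62 and 0.52 in PNO and 0.79, 0.68, 1.17 and 0.53 in IUO. The 4 F2 PNO values were all under the 4 F2 SAL values, though only by 0.62 against 0.64 at the closest, and every other pair of groups of the same generation overlapped. The means spanned 2.36-fold, from 1.19 in F2 SAL to 0.505 in F2 PNO.

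Drd2, the main D2-like receptor, an autoreceptor on dopamine neurons and the marker of indirect pathway neurons, read 19.16, 38.34, 69.19 and 39.98 FPKM in F1 SAL, 25.48, 20.30, 18.20 and 31.37 in F1 PNO and 48.71, 42.67, 35.49 and 25.78 in F1 IUO. The F2 values were 44.24, 43.18, 27.30 and 27.76 FPKM in SAL, 36.60, 28.83, 30.33 and 44.23 in PNO and 15.78, 32.17, 16.33 and 48.04 in IUO. F1 SAL held both a value among the lowest and the highest of all, and the F1 PNO libraries were the most uniformly low, with 31.37 FPKM as their highest. The means went from 41.7 in F1 SAL, 38.2 in F1 IUO, 35.6 in F2 SAL, 35.0 in F2 PNO and 28.1 in F2 IUO to 23.8 in F1 PNO, a 1.75-fold span, and no neighbours differed beyond their spread (exact permutation test, 2-sided, lowest p = 0.343).

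Drd3, a D2-like receptor concentrated in the ventral striatum in adults, read 0.25, 0.82, 0.38 and 0.09 FPKM in F1 SAL, 0.62, 0.70, 0.53 and 0.21 in F1 PNO and 0, 0.07, 0.20 and 0.21 in F1 IUO. In F2 it read 0.67, 0.39, 0.22 and 0.28 FPKM in SAL, 0.11, 0.08, 0.14 and 0 in PNO and 0, 0.37, 0.41 and 0.04 in IUO. All F2 PNO values were under all F2 SAL and all F1 PNO values. F1 PNO and F1 IUO met at 0.21 FPKM. These are levels near the low end of the tables, at which 17 of 24 libraries reached 0.1 FPKM, and the number of reads behind them is unknown.

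Drd4, the D2-like receptor best known from the prefrontal cortex and the retina, was listed above 0 in 8 libraries. It read 0, 0.03, 0 and 0 FPKM in F1 SAL, 0.07, 0, 0.04 and 0.04 in F1 PNO, 0.06, 0.07, 0 and 0 in F1 IUO and 0, 0, 0.06 and 0.04 in F2 PNO, and it was at 0 in all F2 SAL and F2 IUO libraries. It met the minimum of 0.1 FPKM in no library and was left out of the tests, with no fold given.

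Each comparison set 4 libraries against 4 with limma on log2(FPKM + 0.1), over the genes with at least 0.1 FPKM in 4 or more of the 8 libraries. Log2 differences are on that scale, which understates the change of a gene as low as Drd3. A call needed an adjusted p under 0.05 (Benjamini-Hochberg over all genes tested). Unadjusted p under 0.05, and the same joined with group means of FPKM that differed 2-fold or more (the 2-fold rule), were counted beside it. The 4 receptors that passed the minimum gave 48 results over 9 comparisons of groups and 3 tests of whether an exposure difference itself differed between generations. None had an adjusted p under 0.05 in limma, with 0.198 as the lowest, and 11 had an unadjusted p under 0.05. No receptor therefore passed the test in any comparison, and the differences below are given by their size and interval.

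**Figure D2:**
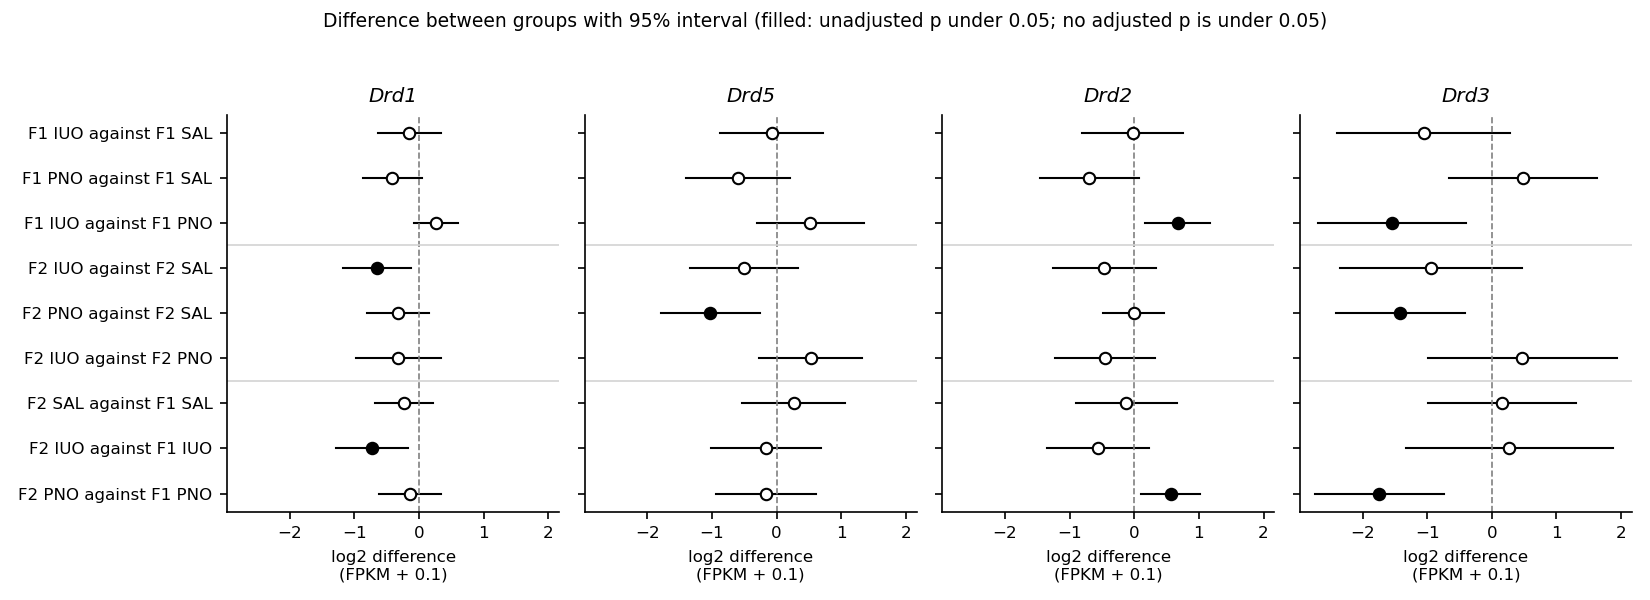
Log2 difference in FPKM + 0.1 (x axis) for each of the 9 comparisons (y axis) with its 95% interval, 1 panel per receptor tested, positive where the first-named group was higher. Filled points have an unadjusted p under 0.05; the Drd3 intervals are the widest and the Drd1 intervals among the narrowest.

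In F1, the question was whether exposure changed the receptors of directly exposed pups. IUO against SAL gave no unadjusted p under 0.05 for the 4 receptors, where 3.91% of the 17380 genes tested had one, 1.61% passed the 2-fold rule and 0% were called. The Drd1 difference was -0.15 (95% interval -0.63 to 0.33), that of Drd5 -0.08 (-0.88 to 0.72), that of Drd2 -0.02 (-0.80 to 0.75) and that of Drd3 -1.05 (-2.40 to 0.29). All 4 intervals include no difference and also changes of more than 1.5-fold. All 6 hypothalamus markers were positive here, 4 with an unadjusted p under 0.05, as were 2 of 3 blood marker rows, and 3 of 3 Y-linked genes were lower in IUO with one.

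PNO against SAL in F1 likewise gave none of the 4, against 13.9% of 17494 genes with an unadjusted p under 0.05, 1.86% past the 2-fold rule and 0% called. The 2 abundant receptors were lower in the PNO mean, Drd1 at 15.1 ± 1.89 against 20.7 ± 5.91 FPKM (SD, n = 4 each) and Drd2 at 23.8 ± 5.88 against 41.7 ± 20.6. The log2 differences were -0.41 for Drd1 (SE 0.20, limma adjusted p = 0.396, exact permutation p = 0.143) and -0.69 for Drd2 (SE 0.34, limma adjusted p = 0.396, exact permutation p = 0.171). F1 SAL replicate 1, at 13.76 and 19.16 FPKM, lay within the PNO range for both. Drd5 was at -0.60 (-1.40 to 0.21) and Drd3 at 0.48 (-0.66 to 1.63). Tissue markers moved with this contrast: all 6 thalamus markers had the higher mean log2 level in PNO, 5 with an unadjusted p under 0.05, with group sums of 114.9 to 297.6 FPKM in PNO and 17.93 to 148.0 in SAL, and all 10 striatal markers had the lower, 3 with an unadjusted p under 0.05, as had 5 of 6 hypothalamus markers, also 3 with one. With the striatal markers as covariate, the differences were -0.072 for Drd1 and -0.12 for Drd2 (limma adjusted p = 0.987 for both), and with Bcl11b left out of those markers, chosen after seeing the data, -0.052 and 0.061 (adjusted p = 0.967 and 0.954). With the mean thalamus marker level as a covariate, chosen after seeing the data, the differences were -0.25 for Drd1 (limma adjusted p = 0.979) and -0.19 for Drd2 (adjusted p = 0.985).

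IUO against PNO in F1 gave the D2-like receptors Drd2 and Drd3 an unadjusted p under 0.05, in opposite directions, and neither was called. Drd2 was 1.60-fold higher in IUO, at 38.2 ± 9.87 against 23.8 ± 5.88 FPKM (SD, n = 4 each; log2 difference 0.67, SE 0.22, limma adjusted p = 0.200). Drd3 had a mean 4.29-fold lower in IUO, at 0.120 ± 0.102 against 0.515 ± 0.215 FPKM (log2 difference -1.54, SE 0.51, limma adjusted p = 0.198), and passed the 2-fold rule. It reached 0.1 FPKM in 4 of 4 PNO but 2 of 4 IUO libraries, so the PNO libraries alone met the minimum for testing. Thus 2 of 4 receptors had an unadjusted p under 0.05 and 1 of 4 passed the 2-fold rule, beside 16.5% and 2.95% of the 17306 genes tested, of which 0.133% were called. Both exact permutation tests gave p = 0.0571, where 0.0286 is the smallest that 4 against 4 libraries allow. Drd1 (0.26, -0.08 to 0.60) and Drd5 (0.52, -0.31 to 1.35) had intervals that included no difference. The thalamus markers summed to 26.69 to 138.4 FPKM in IUO, overlapping the PNO sums at their low end, with 4 of 6 lower at an unadjusted p under 0.05. The hypothalamus markers summed to 43.77 to 158.4 FPKM in IUO and 3.99 to 12.7 in PNO, without overlap, with 5 of 6 higher at an unadjusted p under 0.05 and a median log2 difference of 3.56. One of them, Avp, the vasopressin precursor, was called (39.8 ± 23.9 against 2.70 ± 1.76 FPKM, limma adjusted p = 0.0468). Of the striatal markers, 7 of 10 were higher at an unadjusted p under 0.05. With the thalamus covariate, Drd2 differed by 0.32 (limma adjusted p = 0.651) and Drd3 by -0.91 (adjusted p = 0.594). With the striatal markers as covariate the values were 0.27 for Drd2 (limma adjusted p = 0.608) and -0.97 for Drd3 (adjusted p = 0.540), and with Bcl11b left out of those markers they turned, to -0.21 (adjusted p = 0.693) and 0.07 (adjusted p = 0.973).

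In F2, no pup or mother was dosed, and the comparison asks what remained in the next generation. IUO against SAL gave 1 of 4 receptors with an unadjusted p under 0.05, beside 8.49% of 17097 genes, and none past the 2-fold rule, beside 2.18%, with 0% called. This was Drd1, at 11.4 ± 3.80 FPKM in IUO and 17.2 ± 1.94 in SAL (SD, n = 4 each), 1.51-fold lower (log2 difference -0.65, SE 0.23, limma adjusted p = 0.553, exact permutation p = 0.0571). The groups overlapped by IUO replicate 2, at 15.46 FPKM, against SAL replicate 4, at 15.03. Drd2 differed by -0.46 (-1.26 to 0.33), Drd5 by -0.51 (-1.34 to 0.33) and Drd3 by -0.94 (-2.35 to 0.46). Of the 10 striatal markers, 9 had a negative difference, 5 with an unadjusted p under 0.05, and sums of 385 to 706 FPKM in IUO against 691 to 870 in SAL. All 7 cortical markers were positive, 5 with an unadjusted p under 0.05, and 2 of 3 blood marker rows and 3 of 3 Y-linked genes were higher in IUO with one. With the striatal markers as covariate the Drd1 difference was -0.16 (limma adjusted p = 0.781), and without Bcl11b among them it was 0.04 (adjusted p = 0.971). The thalamus covariate, chosen after seeing the data, left the Drd1 difference at -0.64 (limma adjusted p = 0.406).

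PNO against SAL in F2 gave the receptors of low level, Drd5 and Drd3, an unadjusted p under 0.05, and neither was called. Drd5 was 2.36-fold lower in PNO, at 0.505 ± 0.0858 against 1.19 ± 0.449 FPKM (SD, n = 4 each; log2 difference -1.03, SE 0.34, limma adjusted p = 0.386). Drd3 was 4.73-fold lower, at 0.0825 ± 0.0602 against 0.390 ± 0.199 FPKM (log2 difference -1.42, SE 0.44, limma adjusted p = 0.374). It reached 0.1 FPKM in 4 of 4 SAL but 2 of 4 PNO libraries, so the SAL libraries alone met the minimum for testing. Neither pair of groups overlapped, and the exact permutation p of both was 0.0286, the smallest possible. So 2 of 4 receptors had an unadjusted p under 0.05, did not overlap and passed the 2-fold rule, beside 10.8%, 7.01% and 2.15% of 17367 genes, of which 0.00576% were called. Drd2 was level between the groups, at 35.0 and 35.6 FPKM (log2 difference -0.01, -0.48 to 0.46), and Drd1 differed by -0.33 (-0.80 to 0.15). Striatal markers were negative in 9 of 10, 2 with an unadjusted p under 0.05, the blood markers were higher in 3 of 3 rows tested, 2 with one (median 1.58), and Pmch, a hypothalamus marker, was higher and Lhx6, a pallidum marker, lower with one. Under a covariate of striatal or thalamus markers the direction of Drd5 and Drd3 did not turn, with Drd5 at -0.95 to -1.20 and Drd3 at -1.41 to -1.70.

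IUO against PNO in F2 gave none of the 4 receptors, beside 7.07% of 17090 genes with an unadjusted p under 0.05, 1.8% past the 2-fold rule and 0% called. The differences were -0.32 for Drd1 (-0.98 to 0.34), 0.52 for Drd5 (-0.28 to 1.33), -0.46 for Drd2 (-1.23 to 0.32) and 0.47 for Drd3 (-0.99 to 1.93). The IUO libraries were the more spread for Drd2, from 15.78 to 48.04 FPKM, where PNO ran from 28.83 to 44.23. Of the Y-linked genes, 2 of 3 were higher in IUO with an unadjusted p under 0.05 (median 3.79). All 7 cortical markers were positive, none with one (median 1.30), and 9 of 10 striatal markers were negative, 1 with one.

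The generations were then compared within an exposure. F2 SAL against F1 SAL gave none of the 4, beside 8.48% of 17497 genes with an unadjusted p under 0.05, 1.45% past the 2-fold rule and 0.0343% called, and the differences were -0.23 (Drd1), 0.26 (Drd5), -0.12 (Drd2) and 0.16 (Drd3). All 3 Y-linked genes were lower in F2 SAL, and 2 of them, Ddx3 and Kdm5d, were called (limma adjusted p = 0.0136 for both). F2 IUO against F1 IUO gave Drd1 alone, 1.61-fold lower in F2, at 11.4 against 18.3 FPKM (log2 difference -0.73, SE 0.25, limma adjusted p = 0.250, exact permutation p = 0.0571). That was 1 of 4 receptors beside 15% of 16916 genes, with 3.32% of genes but no receptor past the 2-fold rule and 0% called. The striatal covariate brought it to -0.14 (limma adjusted p = 0.723) and, without Bcl11b, to 0.21 (adjusted p = 0.700). The thalamus covariate, chosen after seeing the data, left the Drd1 difference at -0.71 (limma adjusted p = 0.128). Drd2, at -0.56 as reported, was then at -0.53 (adjusted p = 0.141). The striatal markers themselves had 9 of 10 negative differences, 6 with an unadjusted p under 0.05.

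F2 PNO against F1 PNO gave the D2-like receptors Drd2 and Drd3 an unadjusted p under 0.05, in opposite directions, and neither was called. Drd2 was 1.47-fold higher in F2, at 35.0 against 23.8 FPKM (log2 difference 0.56, SE 0.20, limma adjusted p = 0.948, exact permutation p = 0.0857). Drd3 was 6.24-fold lower in F2, at 0.0825 against 0.515 FPKM (log2 difference -1.74, SE 0.44, limma adjusted p = 0.824, exact permutation p = 0.0286), with no overlap. It reached 0.1 FPKM in 4 of 4 F1 PNO but 2 of 4 F2 PNO libraries, so the F1 PNO libraries alone met the minimum for testing. So 2 of 4 receptors had an unadjusted p under 0.05, beside 4.76% of 17370 genes, and 1 of 4 did not overlap and passed the 2-fold rule, beside 3.34% and 2.01%, with 0.0288% called. Of the 5 indirect pathway genes, 3 were higher in F2 with an unadjusted p under 0.05. The striatal covariate left Drd2 at 0.54 (limma adjusted p = 0.833) and Drd3 at -1.69 (adjusted p = 0.828). Without Bcl11b among its markers, they were at 0.37 and -1.31 (adjusted p = 0.649 for both). All 6 thalamus markers had a negative difference here, with a median of -1.13. So had all 3 Y-linked genes, none with an unadjusted p under 0.05 (median -3.06). With the thalamus covariate, Drd2 differed by 0.40 (limma adjusted p = 1) and Drd3 by -1.48 (adjusted p = 1).

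Whether an exposure difference changed from F1 to F2 was tested as an interaction over 16 libraries. For IUO against SAL, 0 of 4 receptors had an unadjusted p under 0.05, beside 5.17% of 17102 genes, and the Drd1 interaction was -0.50 (-1.22 to 0.22). For PNO against SAL, 1 of 4 did, beside 3.9% of 17268 genes: the Drd3 difference was 1.90 lower in F2 than in F1 (log2 interaction -1.90, SE 0.68, limma adjusted p = 1). For IUO against PNO, 2 of 4 did, beside 5.87% of 17032 genes, namely Drd2 (-1.12, SE 0.44, limma adjusted p = 0.816) and Drd3 (2.01, SE 0.83, limma adjusted p = 0.816). In each of these tests 0% of genes were called by limma. The comparisons share libraries: F1 PNO, high in Drd3 and low in Drd2, enters each of these last results. The tests against SAL set F1 SAL, with Y-linked sums of 27.2 to 36.08 FPKM, beside F2 SAL, with 0.03 to 2.57. Generation and sex cannot be told apart in that baseline. For IUO against SAL, the median log2 difference of the Y-linked genes was -2.96 in F1 and 3.59 in F2. For PNO against SAL it was -1.92 and -0.20, and for IUO against PNO -1.04 and 3.79. The interaction of IUO against PNO was therefore not balanced for sex either, and the part of sex in it was not tested.

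The balance of the 2 main receptors was read as the ratio of Drd1 to Drd2 FPKM. It was under 1 in 24 of 24 libraries, with a median of 0.508 and a range from 0.236 in F2 PNO replicate 1 to 0.820 in F1 PNO replicate 3. By group the mean ratio was 0.653 ± 0.123 in F1 PNO, 0.556 ± 0.188 in F1 SAL, 0.506 ± 0.135 in F2 SAL, 0.489 ± 0.0631 in F1 IUO, 0.448 ± 0.133 in F2 IUO and 0.416 ± 0.151 in F2 PNO (SD, n = 4 each). The PNO line thus held both ends of the order, the highest mean in F1 and the lowest in F2. Neighbours in the order did not differ beyond their spread (exact permutation test, 2-sided, p from 0.400 to 0.943).

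**Figure D3:**
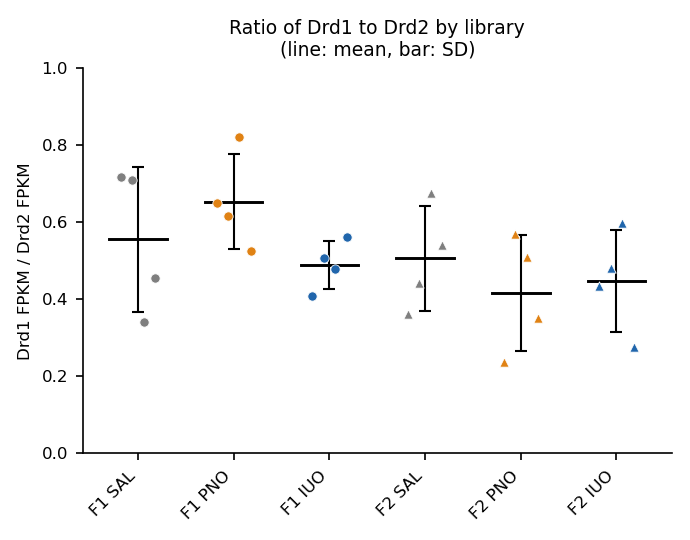
Ratio of Drd1 to Drd2 FPKM (y axis) in the 4 libraries of each group (x axis), with mean and SD. Every point is under 1 and the groups overlap, from a mean of 0.416 in F2 PNO to 0.653 in F1 PNO.

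Drd1 and Drd2, although they mark different neurons, went up and down together across libraries. On log2(FPKM + 0.1) over the 24 libraries, Pearson's r was 0.622 and Spearman's rho 0.581 (permutation test, adjusted p = 0.00315 and 0.0107 over 12 relations; raw p = 0.00105 and 0.00357). The r was 0.608 with values centred on their group means and 0.672 without the 2 libraries farthest from the median of Drd1. It was 0.822 over the 12 F1 libraries and 0.579 over the 12 F2 libraries, where the adjusted p was 0.135. All points of one library share its scaling and its piece of tissue.

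Both also followed the striatal markers. The r with the mean log2 level of the 10 markers was 0.836 for Drd1 (rho 0.819, permutation test, adjusted p = 0.00012 for both, raw p = 1e-05, the smallest these permutations can give) and 0.75 for Drd2 (rho 0.737, adjusted p = 0.00018 and 0.00024, raw p = 3e-05 and 6e-05). Without the 2 farthest libraries r was 0.744 and 0.657. Within F1 it was 0.882 and 0.878, and within F2 0.833 and 0.622, the last with an adjusted p of 0.120. Leaving Bcl11b out gave 0.836 and 0.832. All 10 markers had a positive r with each receptor, where 55.2% of the other 13675 genes with a mean of at least 1 FPKM had one with Drd1 and 40.3% with Drd2.

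Drd2 ran against the thalamus markers over all libraries and in both generations, and Drd1 by rho in F1. Drd2 had r = -0.729 and rho = -0.773 (permutation test, adjusted p = 0.00028 and 0.00012, raw p = 7e-05 and 2e-05), -0.722 when centred on group means, -0.745 without the 2 farthest libraries, -0.775 in F1 and -0.716 in F2. Drd1 gave r = -0.227 and rho = -0.345 over all libraries (permutation test, adjusted p = 0.383 and 0.197, raw p = 0.287 and 0.0983). Over the F1 libraries alone Drd1 had r = -0.643 (permutation test, adjusted p = 0.0602) and rho = -0.804 (adjusted p = 0.00562), the same rho as Drd2 there, and over F2 r = -0.118 and rho = -0.168. The difference between the 2 correlations was not tested. In the cortical markers neither receptor passed, with r = -0.208 for Drd1 and -0.367 for Drd2 (permutation test, adjusted p = 0.385 and 0.184, raw p = 0.321 and 0.0765). Drd3 passed with none of its 5 partners, with r from -0.288 (cortical markers) to 0.297 (thalamus markers) and permutation adjusted p of 0.297 or more. Its r was 0.248 with Drd1, -0.188 with Drd2 and 0.0231 with the striatal markers.

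**Figure D4:**
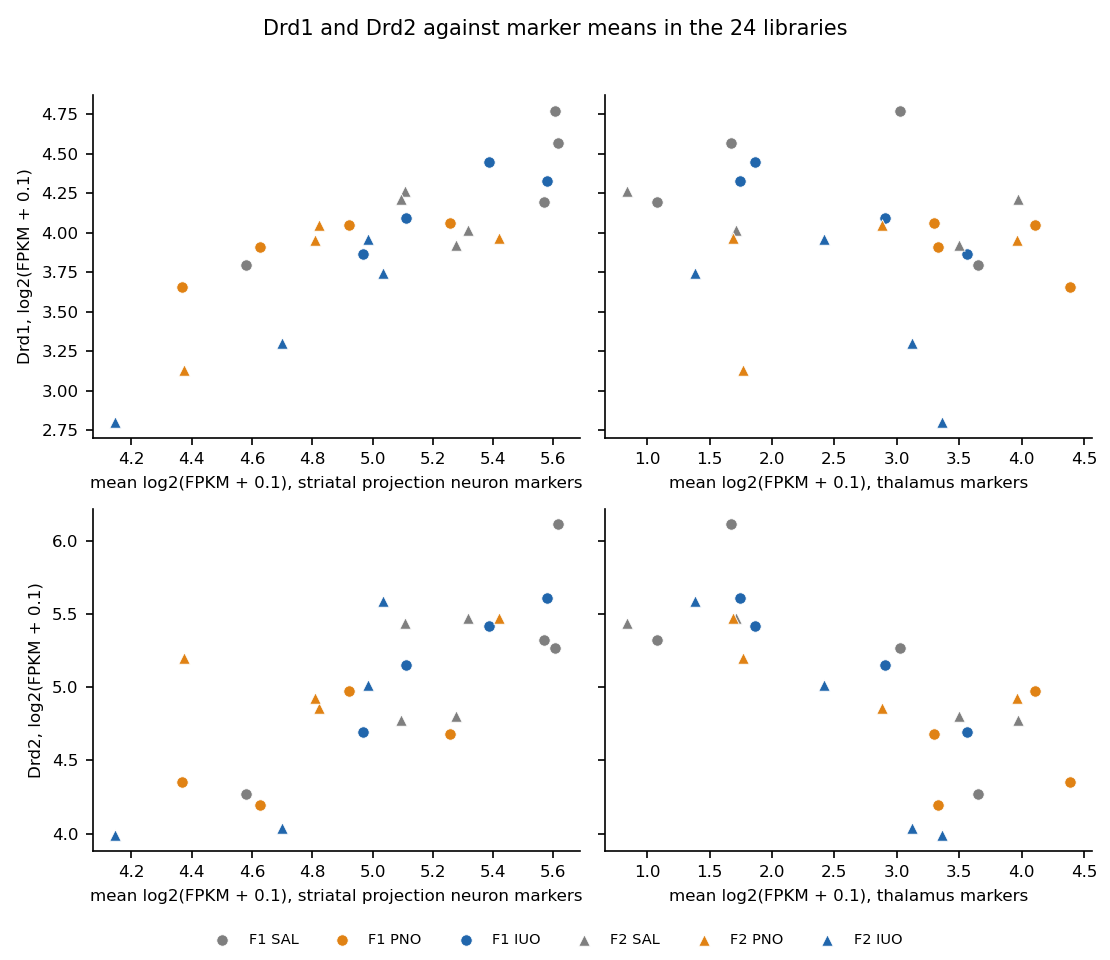
Level of Drd1 (upper panels) and Drd2 (lower panels) on log2(FPKM + 0.1) against the mean log2 level of the striatal (left) and thalamus (right) markers, 1 point per library. Drd1 and Drd2 increase with the striatal markers (r = 0.836 and 0.75), and Drd2 decreases with the thalamus markers (r = -0.729).

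The genes most like each receptor in pattern, by Pearson's r over the 24 libraries among 13676 genes with a mean of at least 1 FPKM, were then named. For Drd1 they were Strip2, which encodes a striatin-interacting protein (r = 0.918), Pde1b, a phosphodiesterase (0.868), Filip1, a filamin-interacting protein (0.852), Pde10a, the main phosphodiesterase of projection neurons (0.847), and Rapgef6, an exchange factor for Rap (0.843). Drd2 stood at rank 363 in that list. For Drd2 they were Rxrg, a retinoid X receptor (0.939), Adora2a, the adenosine receptor of indirect pathway neurons (0.935), Entpd3, an ectonucleotidase (0.906), Asb2, a subunit of ubiquitin ligases (0.903), and Ppp1r1b (0.892). Drd1 stood at rank 107 there. The 5 indirect pathway genes had a median r of 0.839 with Drd2 and 0.343 with Drd1, while the 6 direct pathway genes above the minimum had 0.637 with Drd2 and 0.392 with Drd1. These values are descriptions, and the order within them was not tested.

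Genes of the neurons that carry the receptors were counted in the 6 treatment comparisons by an unadjusted p under 0.05, since no gene of these lists was called at an adjusted p under 0.05. Over all genes tested, 3.91% had an unadjusted p under 0.05 in F1 IUO against SAL, 13.9% in F1 PNO against SAL, 16.5% in F1 IUO against PNO, 8.49% in F2 IUO against SAL, 10.8% in F2 PNO against SAL and 7.07% in F2 IUO against PNO. Of 7 direct pathway genes, Tac1, the substance P precursor, was the highest at 60.9 FPKM and Eya1, a developmental regulator, the lowest at 0.937. None passed in F1 IUO against SAL or in F2 IUO against PNO. Pdyn, the dynorphin precursor, was the 1 that passed in F1 PNO against SAL, with a 0.550-fold ratio (limma adjusted p = 0.324), and in F1 IUO against PNO, with 1.91-fold (limma adjusted p = 0.0853). In F2, Chrm4, a muscarinic receptor, was lower in both IUO and PNO than in SAL, at 13.2 and 13.9 against 18.5 FPKM, with a limma adjusted p of 0.567 and 0.372, and Sfxn1, a mitochondrial serine carrier, was 1.20-fold higher in IUO. The list's median log2 difference ran from -0.24 in F2 IUO against SAL to 0.25 in F1 IUO against PNO, beside -0.08 and 0.03 over all genes tested.

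Of the 5 indirect pathway genes, Penk, the enkephalin precursor, was the highest at 213 FPKM and Gpr52, an orphan receptor, the lowest at 3.80. Among the treatment comparisons, only F1 IUO against PNO had any past an unadjusted p under 0.05. There 4 of 5 were higher in IUO, beside 16.5% of all genes in either direction (1747 higher and 1110 lower of 17306): Adora2a 1.69-fold, Gpr6, an orphan receptor, 1.69-fold, Penk 1.54-fold and Sp9, a transcription factor of these neurons, 1.75-fold (limma adjusted p from 0.107 to 0.146). Drd2 stood at 1.60-fold in the same comparison. The median of the list was 0.73 there, beside 0.03 over all genes tested. It was -0.52 in F1 PNO against SAL, beside -0.05, and -0.15 in F2 IUO against SAL, beside -0.08.

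Of the 20 genes of receptor signalling, 9 were higher and 1 lower in F1 IUO against PNO, beside the 16.5% of all genes. The higher ones at 1.5-fold or more were Adcy5, the main striatal adenylyl cyclase (1.66-fold, limma adjusted p = 0.0695), Pde10a (1.82-fold), Ppp1r1b (1.57-fold), Gng7, the G protein subunit that partners the stimulatory alpha subunit of the striatum (1.57-fold), and Rgs2, a regulator of G protein signalling (1.53-fold). In F1 PNO against SAL, where 13.9% of all genes passed, 1 was higher and 5 lower, among them Gnal, that stimulatory alpha subunit (0.659-fold), Gng7 (0.623-fold) and Pde10a (0.579-fold). In F2 IUO against SAL, where 8.49% passed, 1 was higher and 7 lower, among them Gnal (0.609-fold, limma adjusted p = 0.202), Gng7 (0.588-fold), Pde10a (0.630-fold) and Ppp1r1b (0.634-fold). F2 PNO against SAL had 1 lower, Adcy5 at 0.784-fold (beside 10.8% of all genes), F2 IUO against PNO had 1 higher and 3 lower (beside 7.07%), and F1 IUO against SAL had none (beside 3.91%). Ppp1r1b was the highest of the list and Kcnj6, a potassium channel opened by D2-like receptors, the lowest at 1.59 FPKM. Pde10a, Ppp1r1b, Gnal and Adcy5 are also striatal markers, so these counts and the marker counts are not separate.

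Among genes of dopamine synthesis, transport and breakdown, Slc6a3 was the lowest at a mean of 0.0792 FPKM, and Th, the first enzyme of synthesis, stood at 1.77 FPKM. Ddc, the decarboxylase that makes dopamine, was lower in both F2 IUO (0.568-fold, limma adjusted p = 0.585) and F2 PNO (0.503-fold, limma adjusted p = 0.365) than in F2 SAL. Nr4a2, a transcription factor of dopamine neurons, was 2.29-fold higher in F2 IUO than in F2 SAL (limma adjusted p = 0.495). Its mean was 7.72 FPKM (range 0.7 to 17.69), above that of Th, and which cells gave this RNA was not tested. All 7 cortical markers were positive in the same comparison, 5 with an unadjusted p under 0.05. Maob, a monoamine oxidase, was 1.36-fold higher in F2 PNO than in F2 SAL. Slc18a2, the vesicular monoamine transporter, was 1.35-fold higher in F1 IUO than in F1 SAL. No gene of this list passed in F1 PNO against SAL, F1 IUO against PNO or F2 IUO against PNO.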

How the data were processed

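RNA-Seq of P14 rat NAc was analysed for 24 libraries, 4 in each of 6 groups taken from the labels. The deposited values are FPKM per gene, which the authors computed with StringTie on a transcriptome merged over all samples. The submitters' processing notes also name HISAT2 and SAMtools, and the authors tested with edgeR. That tool needs counts, so limma 3.58.1 in R 4.3.3 (linear fit, moderated with a mean trend) was run on log2(FPKM + 0.1) for genes with at least 0.1 FPKM in 4 of 8 libraries, or in 8 of 16 for an interaction. The genome build behind the files is not given in the sources used here, and the window coordinates belong to RefSeq on GRCr8. Reads per library are unknown, so no counting error is given. Summed FPKM ranged from 535866 to 766781 over libraries, with 4782 to 7532 genes at 0, and no 2 libraries had the same values.

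Tests were 2-sided. Receptors and their ratio were tested too by exact permutation over the 70 assignments of 4 against 4 libraries, and correlations by 100000 permutations. Python 3.11.15, pandas 2.3.3, numpy 2.4.6, scipy 1.17.1 and matplotlib 3.10.9 were used. The scripts were tested on simulated data. The receptors and the gene lists were chosen with earlier results of these data known. The genes named were the 5 receptors, the 5 genes with the highest Pearson's r to each receptor with a mean of at least 1 FPKM, and, from the lists, the highest and the lowest in level and those with an unadjusted p under 0.05 whose group means differed 1.5-fold or more. One result under this rule is not reported here. Other list genes, where named because few passed, were chosen after their values were seen. The alternatives were a pseudocount of 1, no filter, an FPKM of at least 1, upper-quartile rescaling (percentile 75), all 24 libraries in one fit, a replicate block, a striatal marker covariate and leaving out each library. The striatal lists without Bcl11b and the thalamus covariate were added after seeing the data.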

Additional observations from a re-analysis of the deposited data

Results flagged for a closer look

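A library was called apart when its gap to the nearest of its group, divided by the range of the group, was above Dixon's 95% critical value for 4 samples. Of 34 groups of values examined, 2 had such a library, and chance alone gives about 1.7, a figure that takes values to be without ties. Drd1 in F2 PNO replicate 1 was at 8.64 FPKM, where the other 3 libraries of the group lay between 15.42 and 16.43 (gap over range 0.87). In the comparison of F2 PNO with F1 PNO the Drd1 difference was -0.14 with this library and 0.071 without it. Drd4 in F1 SAL replicate 2 was at 0.03 FPKM, where the other 3 libraries were listed at 0 (gap over range 1.0). With the others tied at 0, any value above 0 gives 1.0, so this flag does not measure how far apart the library was. A value of 0.03 FPKM is near the smallest above 0 in the libraries, 0.01.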

How the results depend on the processing

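No receptor result had an adjusted p under 0.05 in limma, either as reported (48 results, 11 with an unadjusted p under 0.05) or in any of 882 refits under an alternative (lowest adjusted p 0.124), so no call was gained or lost, and 65 refits turned the sign, 32 under a marker covariate, 32 on leaving out a library and 1 under upper-quartile rescaling. The direction was the same in 48 of 48 results with no filter and with all 24 libraries in one fit, and in all 26 that remained at an FPKM of at least 1, where Drd3 dropped out and Drd5 stayed in 2 comparisons. A pseudocount of 1 turned none. Upper-quartile rescaling turned Drd2 in F2 PNO against F2 SAL (0.052).

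The replicate numbers do not pair the libraries: deviations of the 60 same-numbered pairs correlated between -0.331 and 0.199 (median -0.0158), and 4 of 24 libraries matched best with their own number. The replicate block turned no direction in 48 results, with the Drd1 difference in F2 IUO against F2 SAL at -0.65 (limma adjusted p = 0.559) and that of Drd2 in F1 IUO against F1 PNO at 0.67 (adjusted p = 0.240).

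The cause of the signs turned by the marker covariates was not tested. With the striatal markers, Drd2 was at 0.084 in F1 IUO against SAL, 0.26 in F2 IUO against SAL, 0.11 in F2 PNO against SAL, 0.059 in F2 SAL against F1 SAL, 0.26 in F2 IUO against F1 IUO and 0.11 in the interaction of IUO against SAL. Drd1 was at -0.00496 in F1 IUO against PNO and -0.042 in the interaction of PNO against SAL, and Drd5 at -0.25 in the interaction of IUO against PNO. With Bcl11b left out of these markers, Drd1 was at -0.26 in F1 IUO against PNO, 0.039 in F2 IUO against SAL, 0.17 in F2 IUO against PNO, 0.21 in F2 IUO against F1 IUO, and 0.14, -0.10 and 0.59 in the interactions of IUO against SAL, PNO against SAL and IUO against PNO. Drd2 was then at 0.061 in F1 PNO against SAL, -0.21 in F1 IUO against PNO, 0.50 in F2 IUO against SAL, 0.27 in F2 PNO against SAL, 0.0092 in F2 IUO against PNO, 0.65 in F2 IUO against F1 IUO, and 0.69 and 0.23 in the interactions of IUO against SAL and IUO against PNO. Drd3 was at 0.074 in F1 IUO against PNO and 0.17 in F2 IUO against SAL, and Drd5 at 0.0042 in F2 PNO against F1 PNO and -0.84 in the interaction of IUO against PNO. With the thalamus markers, Drd2 was at 0.050 in F1 IUO against SAL and 0.00744 in F2 PNO against SAL, Drd1 at -0.065 in F1 IUO against PNO and Drd5 at -0.25 in the interaction of IUO against PNO. Both of the last covariates were chosen after seeing the data.

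Leaving out each library in turn changed the sign of 12 results, all with an unadjusted p over 0.05 as reported. Drd2 ranged from -0.35 to 0.27 in F1 IUO against SAL, -0.13 to 0.11 in F2 PNO against SAL and -0.45 to 0.17 in F2 SAL against F1 SAL. Drd3 ranged from -0.21 to 0.54 in F2 SAL against F1 SAL, -0.060 to 0.69 in F2 IUO against F1 IUO and -0.27 to 0.53 in the interaction of IUO against SAL. Drd5 ranged from -0.27 to 0.16 in F1 IUO against SAL, -0.35 to 0.032 in F2 IUO against F1 IUO, -0.39 to 0.051 in F2 PNO against F1 PNO and -0.22 to 0.22 in the interaction of IUO against PNO. Drd1 ranged from -0.23 to 0.071 in F2 PNO against F1 PNO and -0.062 to 0.30 in the interaction of PNO against SAL. The unadjusted p of Drd1 in F2 IUO against SAL rose to 0.0503 without F2 IUO replicate 3 and 0.0510 without F2 SAL replicate 2, and that of Drd2 in F2 PNO against F1 PNO to between 0.0550 and 0.0564 without F1 PNO replicate 2 or 3 or F2 PNO replicate 4. In the interaction of IUO against PNO it rose for Drd2 to 0.0528 without F2 IUO replicate 1 or 3, and for Drd3 to between 0.0506 and 0.0647 without any 1 of 6 libraries (F1 IUO replicate 1, F1 PNO replicates 1 and 2, F2 IUO replicates 2 and 3, F2 PNO replicate 4).

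Of the correlations, those of Drd1 with Drd2 (0.579) and of Drd2 with the striatal markers (0.622) lost an adjusted p under 0.05 over the 12 F2 libraries, as did the rho of Drd1 with the striatal markers (0.643), and that of Drd2 with Drd3 gained one without the 2 farthest libraries (-0.498), as did the rho of Drd1 with the thalamus markers over F1 (-0.804). Relations that did not pass as reported changed sign: over F1, Drd1 with Drd3 (-0.115) and Drd3 with the striatal markers (-0.360). Over F2 these were Drd2 with Drd3 (0.0530), Drd1 with the cortical markers (0.0925) and Drd3 with the thalamus markers (-0.0415). After centring they were Drd1 with the cortical markers (0.0396) and Drd3 with the striatal markers (-0.0535), and without the 2 farthest libraries Drd1 with Drd3 (-0.0257) and Drd3 with the striatal markers (-0.0554). Drd3 with the striatal markers without Bcl11b gave -0.0139. The reads behind each value are unknown, so the limit that depth sets for Drd3 and Drd4 is unknown too.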
